A study of Mus musculus with 23 samples.

Results

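The imprinted growth genes H19, Igf2, Igf2r, Meg3, Rian, Dlk1, Peg3, Plagl1 and Grb10 were followed through the differentiation of mouse embryonic stem (ES) cells into blood cells, with and without the leukaemia fusion protein RUNX1-ETO. The genes were chosen by name and not ranked by their values, although earlier results of these data were known. A probe of the array belonged to a gene when its RefSeq accession mapped to the symbol, and where a gene had several probes the one with the highest mean represented it. By this rule 8 of the 9 genes were measured, with 19 probes in all, out of 20151 genes named on the array, of which 15203 passed a floor of 6.5 on the log2 scale on at least 1 array and were tested. All 8 were among the tested genes. H19 was matched through the name the files themselves give for its probes, and Rian had no probe that the rule could name and was not analysed here.

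In genomic imprinting, only the copy inherited from one parent is transcribed, because DNA methylation laid down in the egg or the sperm marks the copies differently. The genes cluster around such marks. Igf2 encodes the fetal growth factor IGF2 and is read from the paternal chromosome, and its neighbour H19, a noncoding RNA, is read from the maternal one. Igf2r, read mainly from the maternal copy, encodes the receptor that takes IGF2 up for breakdown, and Grb10 encodes an adaptor that dampens signalling from the insulin and IGF1 receptors. Dlk1, a paternally expressed membrane protein related to Notch ligands, shares a cluster with the maternally expressed noncoding RNAs Meg3 and Rian. Peg3 and Plagl1 are paternally expressed and encode zinc finger proteins. Several of these genes are high in the embryo and fall as tissues mature, and they have been described as members of a network that restrains growth. The arrays measured total RNA, so the parental origin of a transcript was not recorded.

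All cells came from an A2lox ES cell line with wild-type RUNX1 that carries the human RUNX1-ETO coding sequence, tagged with HA, under a doxycycline (Dox)-responsive promoter, and the strain is labelled C57BL/6. ES cells had been kept on feeder cells and then, before differentiation, were grown without them for 2 passages. The line is a culture model in which colonies were picked after transgene insertion. In blast culture, Dox was added at 0.1 µg/ml on day 1 and cells were sorted on day 2 as haemogenic endothelium (HE, KIT+Tie2+CD41-), HE2 (KIT+Tie2+CD41+) and progenitors (CD41+KIT+Tie2-). Myeloid progenitors were floating progenitors grown on in a medium with stem cell factor, Flt3 ligand and thrombopoietin, and induced on day 2 for 12 h before harvest on day 3. Uninduced HE, HE2 and myeloid progenitors had 3 arrays each, as had their induced counterparts, and progenitors had 2 arrays uninduced and 2 induced. The sample titles call these biological replicates, but a second label of the third induced myeloid array calls it a technical replicate, and P values measure the spread between these arrays. A technical repeat of uninduced progenitors was normalized with the rest and left out of the tests, which used 22 of 23 arrays.

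Per array, between 48.8% and 78.4% of the spots were well above background, and the second array of induced progenitors had the fewest. The arrays lay on 3 slides. HE, HE2 and the first array of each progenitor group were on slides 1 and 2, with the second uninduced progenitor array, whereas all myeloid progenitors were on slide 3 with the second induced progenitor array and the technical repeat. Uninduced progenitors and myeloid progenitors therefore shared no slide in the tests. The probe of Runx1t1, the mouse counterpart of the ETO part, was higher with Dox by 2.08, 3.96 and 2.06 on the log2 scale in HE2, progenitors and myeloid progenitors, each past the threshold, and by 1.24 in HE, where the adjusted P of 0.0155 went with a P above the threshold. Runx1 differed by -0.29 to 0.75 and did not pass the test in any stage. In bulk RNA of this kind, fewer cells of a type and less RNA per cell cannot be told apart. The defining markers of the sorts were present at the RNA level: Tek, which encodes TIE2, averaged 11.95 in uninduced HE, 10.67 in HE2 and 8.67 in progenitors. With Dox it averaged 11.10 in progenitors, which were sorted as Tie2-, above the uninduced HE2 sorted as Tie2+. Itga2b, which encodes CD41, averaged 10.70 in uninduced HE, although these cells were sorted as CD41-, and 11.81 in HE2. Induced HE2, sorted as CD41+, averaged 9.35, below uninduced HE, so RNA levels in these groups went against the surface sort. The summed level of 8 myeloid markers was 15.295 to 15.609 in uninduced progenitors and 14.874 to 15.398 in uninduced myeloid progenitors. Myeloid progenitors also gave the highest summed level of primitive erythroid genes, 20.463 to 20.624 uninduced, against 17.538 to 17.781 in uninduced progenitors, with all 8 erythroid markers well above background on every array of both.

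H19 and Igf2 also host microRNAs, and 4 mature sequences are given because they are part of the products of the locus at which the largest response to Dox among these genes was measured. They come from RefSeq on GRCm38.p6, with the seed, bases 2 to 8, in capitals, and no probe analysed here measures them. H19 holds both arms of miR-675 at chr7:142577112-142577133 and chr7:142577078-142577099 on the minus strand, and Igf2 holds both arms of miR-483 at chr7:142654968-142654989 and chr7:142654932-142654952 on the minus strand. No seed was shared among the 4.
mmu-miR-675-5p: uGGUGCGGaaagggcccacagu
mmu-miR-675-3p: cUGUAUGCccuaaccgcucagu
mmu-miR-483-5p: aAGACGGGagaagagaagggag
mmu-miR-483-3p: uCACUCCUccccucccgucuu

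RUNX1-ETO binds DNA through the Runt domain of RUNX1, whose core motif is TGTGGT, so the 250 bases before each RefSeq start site were searched for these letters on both strands. Of 13 start sites of the genes, with Rian included, 2 held the motif, 1 of Meg3 and the only one of Dlk1, and 14% of 32851 such windows in the whole table did. No window was available for H19. The windows of Meg3 and Dlk1 are shown with the motif in capitals because they are the only ones with a match, and the most downstream of the 4 Igf2 windows because Igf2 was the gene that passed the test of Dox. They lie at chr12:109540746-109540995 on the plus strand for Meg3, chr12:109452573-109452822 on the plus strand for Dlk1 and chr7:142657497-142657746 on the minus strand for Igf2 (GRCm38.p6). The match starts 225 bases before the start site in Meg3, where it reads ACCACA and so lies on the opposite strand, and 143 bases before it in Dlk1. The Igf2 window held 6 CG dinucleotides, as many as the median of all windows, and those of Meg3 and Dlk1 held 10 and 8.
Meg3: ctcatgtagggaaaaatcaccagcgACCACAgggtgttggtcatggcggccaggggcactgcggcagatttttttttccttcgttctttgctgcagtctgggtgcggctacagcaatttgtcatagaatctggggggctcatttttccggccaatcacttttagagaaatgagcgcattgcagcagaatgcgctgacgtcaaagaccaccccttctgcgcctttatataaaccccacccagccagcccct
Dlk1: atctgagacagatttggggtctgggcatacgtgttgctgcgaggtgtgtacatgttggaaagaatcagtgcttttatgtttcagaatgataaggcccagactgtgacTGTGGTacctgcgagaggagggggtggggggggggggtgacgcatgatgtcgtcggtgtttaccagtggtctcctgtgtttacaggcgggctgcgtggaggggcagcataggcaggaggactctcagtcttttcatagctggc
Igf2: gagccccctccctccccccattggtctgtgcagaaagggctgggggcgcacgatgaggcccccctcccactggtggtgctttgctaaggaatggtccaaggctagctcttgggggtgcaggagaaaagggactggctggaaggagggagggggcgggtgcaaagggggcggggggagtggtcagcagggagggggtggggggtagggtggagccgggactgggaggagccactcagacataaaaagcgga

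On the chosen probes, Igf2, Igf2r, Meg3 and Peg3 carried every difference that passed the test. The test required P of at most 0.001 and at least a 2-fold change in limma. Most of these were decreases along differentiation without Dox. From HE to HE2 without Dox, 1 of 8 genes passed, Igf2r, which fell, where 5.06% of all tested genes passed. From HE2 to progenitors without Dox, Igf2r, Meg3 and Peg3 passed and fell, 3 of 8 against 5.39% of all genes, and 6 of 8 were lower in both progenitor arrays than in every HE2 array, as were 20.3% of all genes. From progenitors to myeloid progenitors without Dox, Igf2 fell and Igf2r rose, 2 of 8 against 13.9% of all genes. In these 3 steps, every array of the later stage was higher than every earlier one for 13.4%, 16.9% and 28.9% of all genes. Every later array was lower for 13.4%, 20.3% and 39%.

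Between the same stages with Dox there were fewer calls. The induced groups of the last comparison also differed in how they were induced. Progenitors got Dox on day 1 of blast culture, whereas myeloid progenitors got it on day 2, for 12 h. None of 8 passed from HE to HE2, where 3.1% of all genes did, Peg3 passed from HE2 to progenitors, 1 of 8 against 7.36%, and none passed from progenitors to myeloid progenitors, against 7.37%. Over these 3 steps 8 of 24 results had an unadjusted P under 0.05 with Dox and 16 of 24 without, and whether the steps themselves differed was tested only as the difference in Dox response between stages. As a response to Dox, Igf2 passed in myeloid progenitors and rose, 1 of 8 against 6.31% of all genes. None of 8 passed in HE, HE2 or progenitors, where 7.09%, 7.22% and 3.73% of all genes did. Over the 4 stages 6 of 32 Dox results had an unadjusted P under 0.05. The share of all tested genes at this looser mark was not counted, so these counts have no background beside them. Every induced array was above every uninduced one for 14.2%, 17%, 22.6% and 23.9% of all genes in the 4 stages. Every induced array was below for 10.9%, 15.3%, 26.3% and 22.7%. In the 3 steps with Dox, every later array was higher for 9.63%, 14.8% and 22.3% of all genes, and lower for 7.41%, 20.9% and 28.7%.

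**Figure D1:**
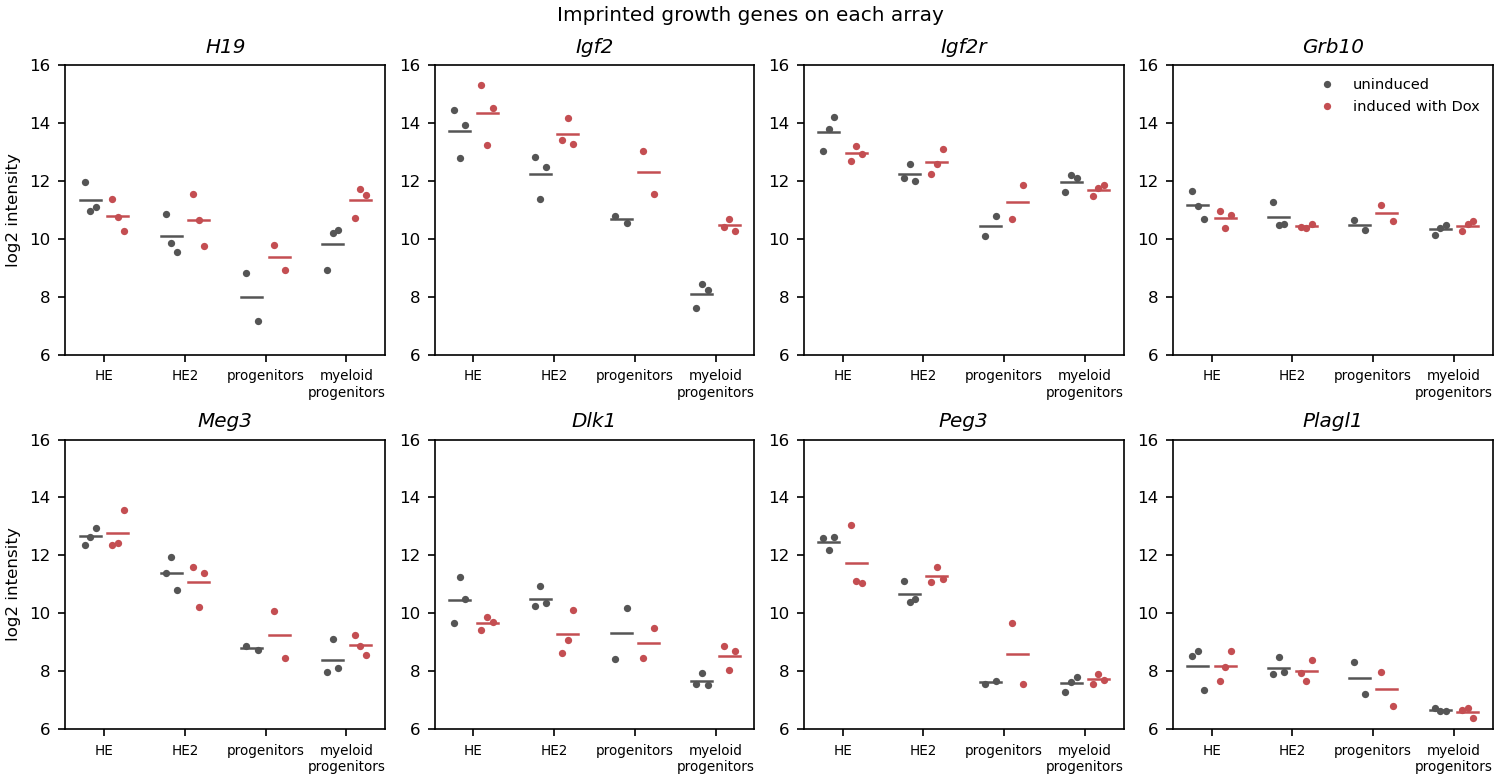
Log2 intensity of the chosen probe of each of the 8 genes (vertical axis) in the 4 stages (horizontal axis), with a point for each array, grey uninduced and red induced, and a line at the group mean. Igf2 spans 6.27 between its highest and lowest group mean and Grb10 0.83, and positions on the axis are not comparable between genes, whose probes differ.

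Igf2 (probe of NM_010514) was highest in HE and lowest in uninduced myeloid progenitors. Uninduced HE arrays gave log2 intensities of 14.44, 12.79 and 13.93, and induced HE arrays 15.33, 13.25 and 14.52. Uninduced HE2 arrays gave 12.82, 11.38 and 12.50, and induced HE2 arrays 13.43, 14.18 and 13.29. The groups overlapped in HE, whereas in HE2 every induced array was above every uninduced one, as for 17% of all tested genes. The mean difference in HE2 was 1.40 (SE 0.518), with an adjusted P of 0.0735 in limma. Uninduced progenitors gave 10.80 and 10.54 and induced progenitors 13.05 and 11.55, a difference of 1.63 (SE 0.634, adjusted P = 0.156 in limma). Both induced arrays were above, as for 22.6% of all tested genes.

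In myeloid progenitors the uninduced arrays gave 7.61, 8.43 and 8.25 and the induced ones 10.41, 10.70 and 10.28. The 3 induced arrays lay together and clear of the uninduced ones, above which 23.9% of all tested genes lay in the same way. Igf2 thus rose 5.17-fold with Dox in myeloid progenitors, by 2.37 on the log2 scale (SE 0.518, 95% interval 1.28 to 3.46, adjusted P = 0.00412 in limma). Without uninduced array 1 the difference was 2.13 and without induced array 2 it was 2.25, and neither passed the threshold of P. Without the third induced array, which one label calls technical, it was 2.46 and passed. In the deposited value table, columns of induced arrays 2 and 3 match each other's scanner files, so which of these the label names is uncertain. The mean difference with Dox was positive in each of the 4 stages, although within slide 2 the HE difference was -0.04, against 1.71 within slide 1. The response in myeloid progenitors exceeded that in HE by 1.73 (adjusted P = 0.224 in limma), which did not pass.

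Along differentiation without Dox, Igf2 differed by -1.49 from HE to HE2 (adjusted P = 0.079 in limma) with overlapping arrays, and by -1.56 from HE2 to progenitors (adjusted P = 0.125 in limma) with both progenitor arrays lower. It then fell 5.96-fold to uninduced myeloid progenitors, by 2.58 on the log2 scale (SE 0.579, adjusted P = 0.00249 in limma). That call was lost without uninduced myeloid array 1 (-2.33), without progenitor array 1 (-2.45) and without progenitor array 2 (-2.70), and with the slide as a block the difference was -1.14. The technical repeat of uninduced progenitors on slide 3 gave 10.25, which was 2.16 above the mean of the uninduced myeloid progenitors on the same slide. With Dox the corresponding difference was -1.84 (adjusted P = 0.0347 in limma) with every myeloid array lower, and -1.09 within slide 3.

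Markers of endothelium moved with Igf2 in myeloid progenitors. Of 8 endothelial markers, 6 rose past the threshold with Dox there, where 6.31% of all tested genes passed. The median difference was 2.20 over the list against -0.02 over all tested genes. The summed level of the list was 15.843 to 16.281 on uninduced arrays and 17.172 to 17.328 on induced ones. All 8 were well above background on every array of both groups, and Tek averaged 9.20 without and 12.27 with Dox. Of 8 mesenchymal and fibroblast markers, which feeder cells would also express, none rose past the threshold with Dox in myeloid progenitors and 1 fell. The differences of 6 of the 8 were positive, with a median of 0.56 over the list. On every uninduced array 3 of the 8 were well above background, and on every induced array 6 were. No array of either group had Lum well above background. Their summed level was 9.2966 to 9.9092 uninduced and 10.329 to 11.06 induced. Smooth muscle and heart markers had a summed level of 11.297 to 11.797 uninduced and 12.653 to 13.156 induced, which did not overlap either. Of 7 tested, 6 differences were positive and 1 marker rose, Tnnt2 (2.19, adjusted P = 0.000341 in limma), while Myh11 and Myl7 were well above background on no array of either group. The part of any of these cell types in the Igf2 difference was not tested.

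**Figure D2:**
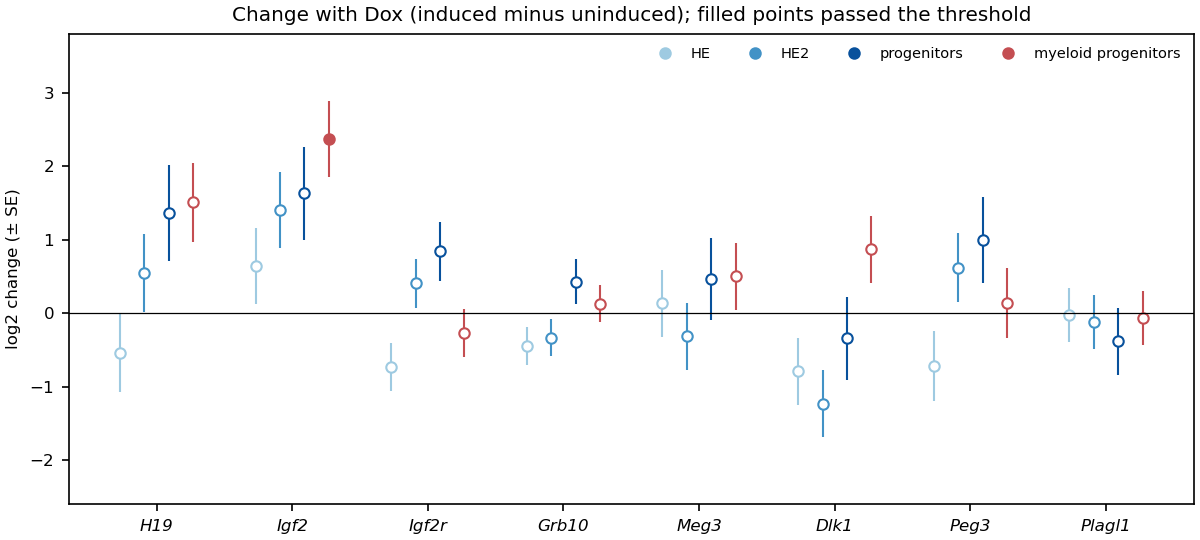
Log2 change with Dox, induced minus uninduced (vertical axis), for the 8 genes (horizontal axis) in the 4 stages (colours), with bars of 1 SE from limma and filled points where the threshold was passed. Igf2 in myeloid progenitors, at 2.37, is the only filled point.

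H19, whose RNA is the precursor of miR-675, was highest in uninduced HE and lowest in uninduced progenitors. Uninduced HE gave 11.97, 10.98 and 11.11 and induced HE 11.39, 10.77 and 10.26. Uninduced HE2 gave 10.87, 9.87 and 9.55 and induced HE2 11.54, 10.64 and 9.75. Uninduced progenitors gave 8.81 and 7.18 and induced progenitors 9.81 and 8.91. In HE and HE2 the groups with and without Dox overlapped. In progenitors both induced arrays were above both uninduced ones, as for 22.6% of all tested genes. The mean difference there was 1.36 (SE 0.651, 95% interval -0.01 to 2.73, adjusted P = 0.25 in limma).

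Uninduced myeloid progenitors gave H19 intensities of 8.94, 10.22 and 10.32 and induced ones 10.74, 11.73 and 11.52. Every induced array was above every uninduced array, as for 23.9% of all tested genes. The difference of 1.51 (SE 0.532, 95% interval 0.39 to 2.62, adjusted P = 0.0699 in limma) did not pass the threshold. The other 4 H19 probes gave differences of at least 1.14 in the same comparison and correlated with the chosen probe at r of at least 0.91 over the 22 arrays. In progenitors they gave Dox differences of 0.57 to 0.90, against 1.36 on the chosen probe. The Dox difference was 2.05 larger in myeloid progenitors than in HE (adjusted P = 0.133 in limma), which did not pass either.

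In the last step H19 and Igf2 differed in opposite directions. From progenitors to myeloid progenitors H19 was higher by 1.83 without Dox (adjusted P = 0.0248 in limma). With Dox it was higher by 1.97 (adjusted P = 0.028 in limma). Every myeloid array was higher in both, as for 28.9% of all tested genes without Dox and 22.3% with Dox. Igf2 was lower in both, and neither H19 difference passed the threshold of P. With the slide as a block the difference with Dox was 2.42 and passed. The other 4 H19 probes gave 1.03 to 1.49 without Dox and 1.79 to 1.94 with Dox. Against the technical repeat on slide 3, at 7.58, the mean of uninduced myeloid progenitors was 2.24 higher. From HE to HE2 without Dox, H19 was lower, with every HE2 array below every HE array (-1.26, SE 0.532, adjusted P = 0.159 in limma). The titles state no pairing, although deviations of same-numbered arrays correlated in this step, where these arrays also shared a slide. With the replicate number as a block over all 22 arrays, the same difference had an SE of 0.217 in limma and passed the threshold. From HE2 to progenitors it was lower by 2.10 without Dox (-2.10, SE 0.594, adjusted P = 0.0335 in limma), -1.55 within slide 1 and -2.37 within slide 2, and without progenitor array 1 the difference was -2.92 and passed. It also passed with the slide as a block, at -1.94, and on the other 4 probes it was -1.07 to -1.70. Over the 22 arrays, Pearson's r between H19 and Igf2 was 0.392.

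Igf2r, the receptor that clears IGF2, followed a different course, falling to progenitors and rising again in culture. Uninduced HE gave 13.05, 13.80 and 14.22, and induced HE 12.71, 13.22 and 12.93. Uninduced HE2 gave 12.12, 12.60 and 12.02, and uninduced progenitors 10.11 and 10.79. These uninduced groups did not overlap from one stage to the next, and Igf2r fell 2.72-fold from HE to HE2 (-1.45, SE 0.331, adjusted P = 0.00785 in limma) and 3.47-fold from HE2 to progenitors (-1.79, SE 0.37, adjusted P = 0.00366 in limma). Within slides 1 and 2 the first step measured -1.07 and -2.20 and the second -2.25 and -1.23. The first call was lost without HE array 2 (-1.39), HE array 3 (-1.18), HE2 array 1 (-1.38) or HE2 array 3 (-1.33), and the second without progenitor array 1 (-1.45).

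Uninduced myeloid progenitors gave Igf2r intensities of 11.61, 12.20 and 12.09, all above the progenitors. Igf2r rose 2.87-fold in this step (1.52, SE 0.37, adjusted P = 0.0044 in limma). The call was lost without myeloid array 2 (1.40), myeloid array 3 (1.46) or progenitor array 1 (1.18), and with the slide as a block the difference was 0.54. The technical repeat on slide 3 gave 11.08, and the uninduced myeloid mean was 0.88 above it. With Dox, HE2 gave 12.24, 12.58 and 13.12, progenitors 10.69 and 11.88 and myeloid progenitors 11.48, 11.76 and 11.85. The induced progenitor arrays lay apart, so that the step from HE2 measured -1.36 (adjusted P = 0.0178 in limma) and did not pass, whereas without the second induced progenitor array it measured -1.95 and passed. With the slide as a block it was -1.68 and passed. It also passed, unmoved at -1.36, without uninduced HE array 1, which changed the pooled spread. The step from induced progenitors to induced myeloid progenitors measured 0.41.

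Dox differences of Igf2r ran from -0.73 in HE to 0.84 in progenitors, and none passed. The response in HE2 exceeded that in HE by 1.14 (adjusted P = 0.421 in limma), and that in myeloid progenitors was below that in progenitors (-1.11, adjusted P = 0.396 in limma). Airn, the paternally expressed noncoding RNA that runs antisense to Igf2r and keeps the paternal Igf2r copy silent, had uninduced group means of 10.83, 9.72, 8.89 and 10.73 in HE, HE2, progenitors and myeloid progenitors. It fell from HE to HE2 (-1.11, adjusted P = 0.00056 in limma) and rose from progenitors to myeloid progenitors (1.84, adjusted P = 2.52e-06 in limma). Airn and Igf2r thus moved the same way in these steps, although they overlap on opposite strands and the probes of such pairs are given here as the files name them. With Dox, Airn averaged 9.92, 9.58, 9.45 and 9.84 in the same 4 stages, and its Dox response in myeloid progenitors was below that in progenitors (-1.44, adjusted P = 0.0168 in limma).

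**Figure D3:**
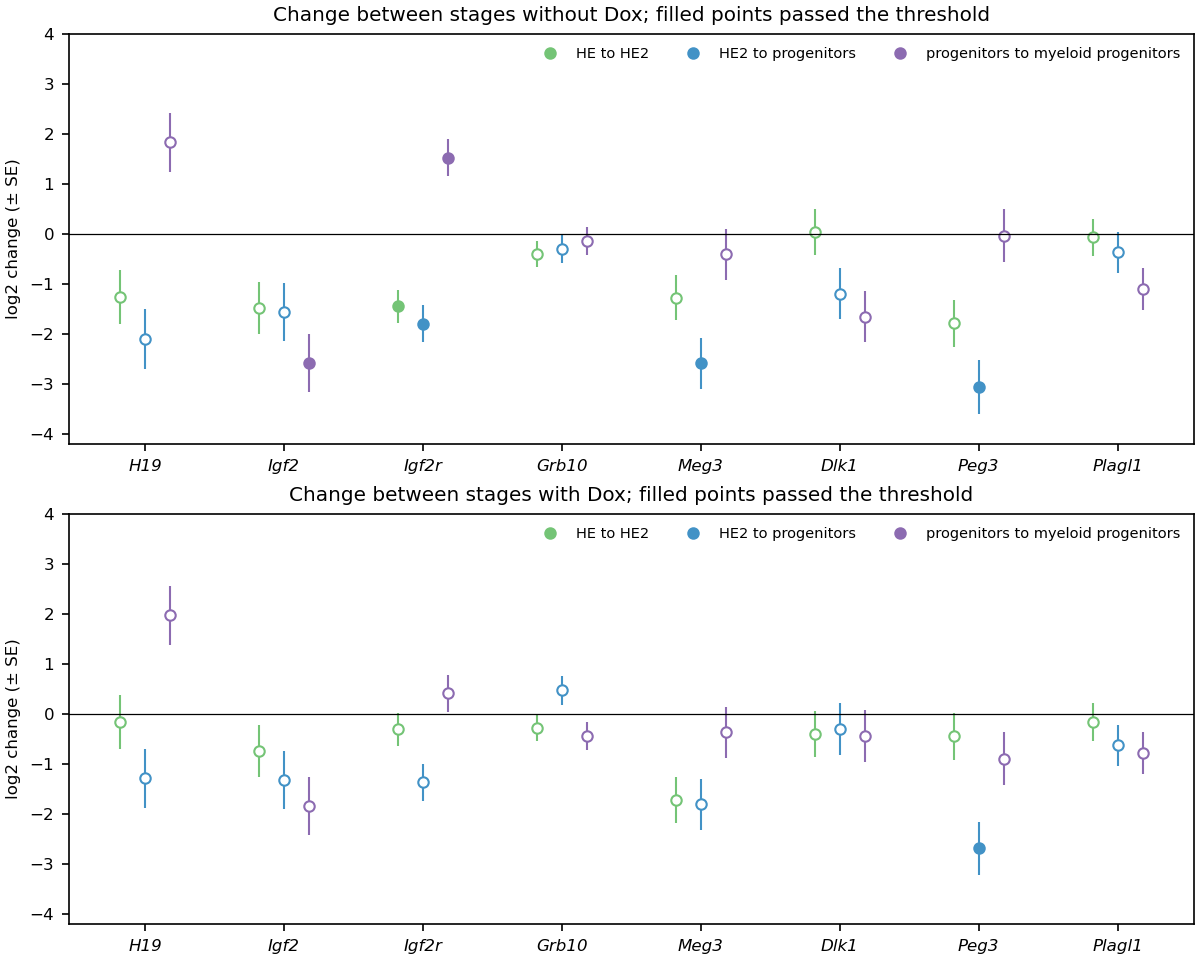
Log2 change between consecutive stages, later minus earlier (vertical axis), for the 8 genes (horizontal axis) without Dox in the upper panel and with Dox in the lower one, with bars of 1 SE from limma and filled points where the threshold was passed. Without Dox all 8 points lie below 0 from HE2 to progenitors, and in the step to myeloid progenitors Igf2 lies at -2.58 and Igf2r at 1.52.

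Meg3, the maternally expressed RNA of the Dlk1 cluster on chromosome 12, was high in HE and low in both kinds of progenitor. Uninduced HE gave 12.37, 12.63 and 12.96 and induced HE 12.37, 12.42 and 13.56. Uninduced HE2 gave 11.39, 11.94 and 10.81 and uninduced progenitors 8.88 and 8.71. Of these 3 uninduced groups each lay below the one before it, and Meg3 fell 6-fold from HE2 to progenitors, by 2.58 on the log2 scale (-2.58, SE 0.51, adjusted P = 0.00257 in limma), with -2.79 within slide 1 and -2.09 within slide 2. Without the second progenitor array the difference was -2.50 and no longer passed. The dimmer Meg3 probes, which correlated with the chosen one at 0.84 and 0.77, gave -2.09 and -0.61 in this step and did not pass. They gave 0.41 and 0.21 from progenitors to myeloid progenitors without Dox, where the chosen probe gave -0.40 with overlapping arrays, and none of the 3 passed.

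The step from HE to HE2 measured -1.27 for Meg3 without Dox (adjusted P = 0.0896 in limma) and -1.72 with Dox (adjusted P = 0.0326 in limma), with every HE2 array below every HE array in both. The second of these passed when either induced progenitor array was left out, or with the slide as a block, at the same value. On the dimmer probes it measured -1.30 and -0.70. Induced HE2 gave 11.61, 10.20 and 11.39, induced progenitors 10.07 and 8.45, and the step between them measured -1.80 (adjusted P = 0.023 in limma). It passed without HE2 array 2 (-2.24) and without progenitor array 1 (-2.62), and the dimmer probes gave -0.70 and -0.10. Uninduced myeloid progenitors gave 7.96, 9.12 and 8.10 and induced ones 9.25, 8.87 and 8.55, which overlapped, and Dox differences of Meg3 were between -0.31 and 0.50 in the 4 stages.

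Mirg, another maternally expressed RNA of this cluster that carries microRNAs, fell in the same steps. Without Dox it fell by 1.26 on the log2 scale from HE to HE2 (adjusted P = 0.0127 in limma) and by 1.80 from HE2 to progenitors (adjusted P = 0.00211 in limma). With Dox it fell by 1.43 and 1.56. Its group means went from 10.66 in uninduced HE to 6.62 in uninduced myeloid progenitors.

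Dlk1, the paternally expressed gene of the cluster, did not fall with Meg3 in the first step. Uninduced HE gave 9.66, 11.24 and 10.47, uninduced HE2 10.23, 10.93 and 10.35 and uninduced progenitors 8.43 and 10.20. The step from HE to HE2 measured 0.04, and the step to progenitors -1.19 (SE 0.513, adjusted P = 0.209 in limma), with -2.15 within slide 1 and -0.15 within slide 2, since the progenitor arrays lay far apart. The myeloid progenitors without Dox gave 7.55, 7.92 and 7.52, below every other uninduced array, a difference of -1.65 from progenitors (adjusted P = 0.0197 in limma) that did not pass, and that passed at -2.53 without the first progenitor array.

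With Dox, Dlk1 arrays gave 9.43, 9.86 and 9.71 in HE, 8.63, 9.08 and 10.10 in HE2, 8.45 and 9.49 in progenitors and 8.86, 8.04 and 8.69 in myeloid progenitors. In HE2 every induced array was below every uninduced one (-1.23, SE 0.459, adjusted P = 0.0751 in limma), as for 15.3% of all tested genes. In myeloid progenitors every induced array was above (0.87, SE 0.459, adjusted P = 0.256 in limma), as for 23.9%. Neither passed. The response in myeloid progenitors exceeded that in HE by 1.66 (adjusted P = 0.169 in limma). The second Dlk1 probe correlated with the chosen one at 0.91 and gave Dox differences of -1.25 in HE2 and 0.39 in myeloid progenitors.

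Peg3, whose zinc finger product has been tied to growth and cell death, showed the largest decrease of the 8 genes in any step. Uninduced HE gave 12.58, 12.18 and 12.62 and uninduced HE2 11.12, 10.39 and 10.49. Uninduced progenitors gave 7.56 and 7.66. The 3 stages did not overlap, and Peg3 fell 8.32-fold from HE2 to progenitors (-3.06, SE 0.53, adjusted P = 0.000803 in limma), by -3.20 within slide 1 and -2.83 within slide 2. No array left out in turn changed this call, and the dimmer Peg3 probe gave -2.09, which did not pass.

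From HE to HE2 the Peg3 difference was -1.79 (SE 0.474, adjusted P = 0.0199 in limma), just outside the threshold. Without the first induced HE array, or without either induced progenitor array, it passed at the same value. A block for the slide also gave a pass at that value. In cultured myeloid progenitors Peg3 gave 7.27, 7.64 and 7.81 uninduced and 7.56, 7.89 and 7.69 induced, which overlapped each other and the uninduced progenitors. With Dox, HE gave 13.06, 11.12 and 11.03, HE2 11.09, 11.61 and 11.17 and progenitors 9.67 and 7.54. The second induced progenitor array, the one with the fewest spots above background, lay at the level of uninduced progenitors, and the first lay between that level and HE2. Peg3 fell 6.41-fold from induced HE2 to induced progenitors (-2.68, SE 0.53, adjusted P = 0.00193 in limma). With the slide as a block the difference was -1.85 and did not pass. Within slide 1, where 1 array stood against 1 and no test was made, the difference was -1.42. Without the second induced progenitor array it was -1.62. The dimmer Peg3 probe gave -1.29 in this step, which did not pass.

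Summed levels of endothelial, mesenchymal, and smooth muscle and heart markers were also lower in uninduced progenitors than in uninduced HE2. From HE2 to progenitors without Dox, 3 of 8 endothelial markers fell past the threshold, where 5.39% of all tested genes passed. Their summed level was 17.107 to 17.325 in HE2 and 16.701 to 16.733 in progenitors. Of 8 mesenchymal markers 1 fell, with 11.98 to 13.043 in HE2 and 10.82 to 11.189 in progenitors. Of these markers 7 were well above background on both progenitor arrays, and Lum was on neither. Of 7 tested smooth muscle and heart markers 2 fell, with 14.902 to 16.685 in HE2 and 14.204 to 14.668 in progenitors. The mesenchymal sum was higher still in uninduced HE, 13.307 to 15.237, and was lowest in uninduced myeloid progenitors. The part of these cells in the decreases of Meg3, Peg3 and Igf2r was not tested.

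**Figure D4:**
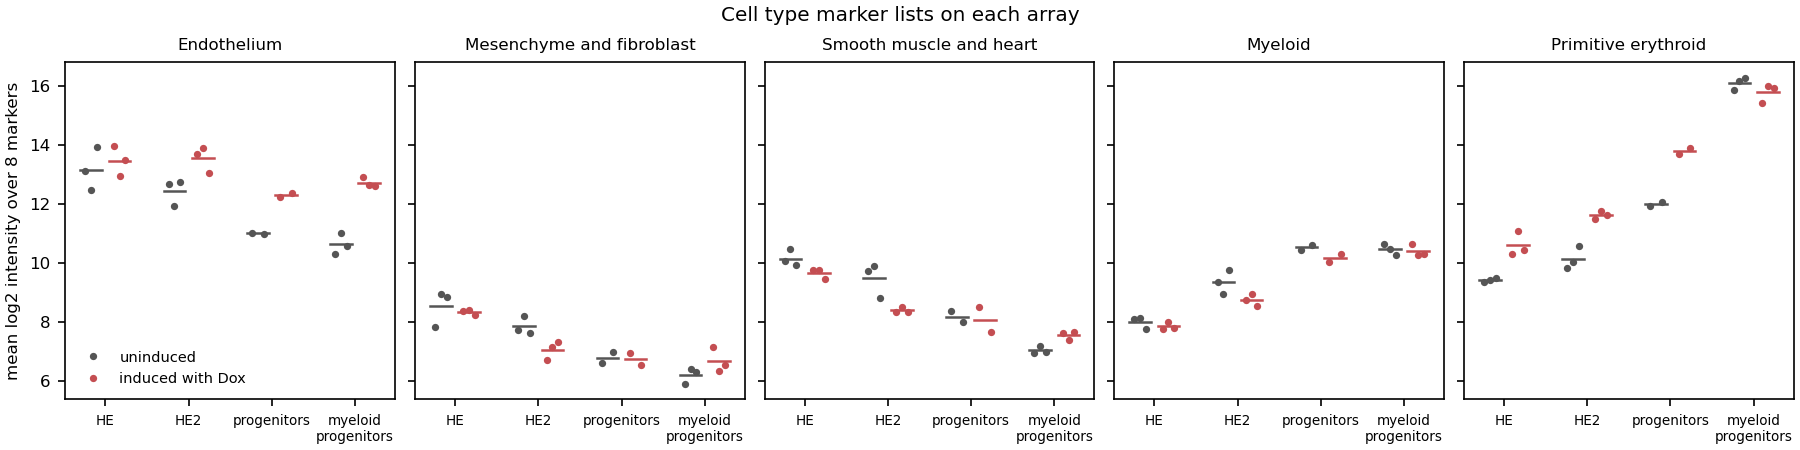
Mean log2 intensity over the markers of each of 5 cell type lists (vertical axis) on each array of the 4 stages (horizontal axis), grey uninduced and red induced, with a line at the group mean. The endothelial list lies at 10.33 to 11.01 in uninduced and 12.62 to 12.90 in induced myeloid progenitors, and the mesenchymal list is lowest in uninduced myeloid progenitors.

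Plagl1, a zinc finger protein that activates several imprinted genes, had probes that disagreed on which differences passed and on the sign of some differences. Its chosen probe gave 8.51, 8.69 and 7.36 in uninduced HE, 7.90, 8.49 and 7.97 in HE2 and 8.30 and 7.21 in progenitors. The same probe in uninduced myeloid progenitors gave 6.72, 6.61 and 6.63. Induced groups lay within 0.38 of the uninduced ones in the mean, so on this probe Dox differences were -0.38 to -0.03 and the only separation was that all myeloid arrays, induced or not, were lower than all others, with -1.10 from progenitors without Dox (adjusted P = 0.0493 in limma).

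The other 3 Plagl1 probes carry the same accession. The second correlated with the chosen one at 0.439, and probes 3 and 4 at 0.183 and 0.229, while probes 3 and 4 correlated with each other at 0.983. On probes 3 and 4 Plagl1 rose with Dox in myeloid progenitors, by 1.61 (SE 0.33, adjusted P = 0.00242 in limma) and 1.78 (adjusted P = 0.00234 in limma). Probe 3 gave 6.10 to 7.10 on uninduced and 7.90 to 8.24 on induced myeloid arrays, which did not overlap. It fell from HE to HE2 without Dox by 1.46 on the log2 scale, and probe 4 fell by 1.52. In uninduced progenitors probe 3 was below the well-above-background mark on both arrays, at 4.85 to 5.16, so it was at least 4.1-fold lower there than in HE2 and at least 2.82-fold lower than in uninduced myeloid progenitors. With Dox both probes fell from HE2 to progenitors (-1.79 and -1.69) and rose to myeloid progenitors (2.13 and 1.89). The direction of Plagl1 in myeloid progenitors therefore depended on the probe, and which transcripts each probe detects was not tested.

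**Figure D5:**
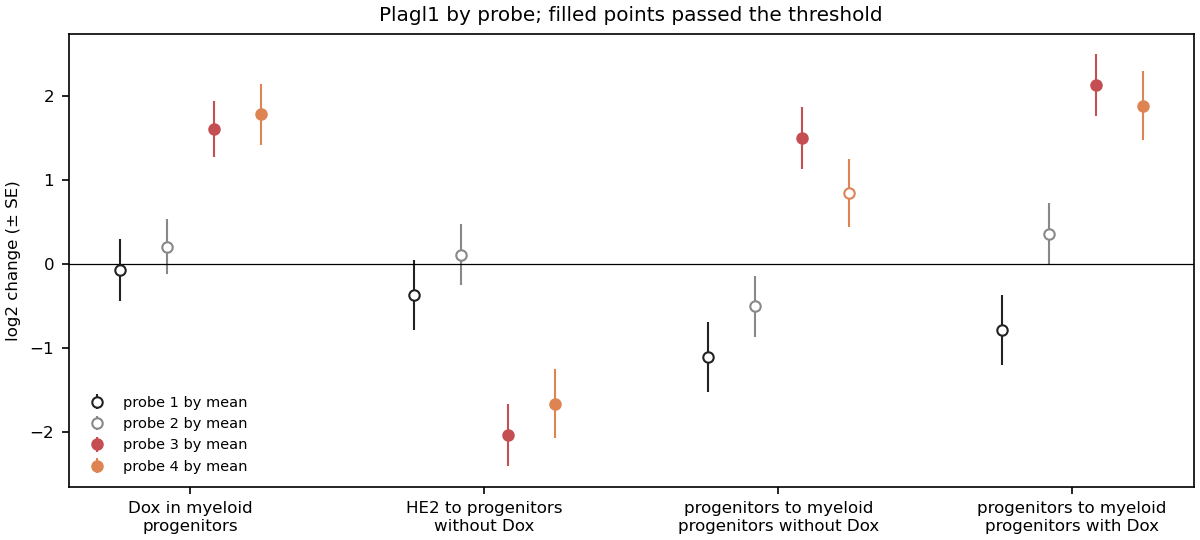
Log2 change (vertical axis) on each of the 4 Plagl1 probes, numbered by mean intensity, in 4 comparisons (horizontal axis), with bars of 1 SE from limma and filled points where the threshold was passed. With Dox in myeloid progenitors probes 3 and 4 lie at 1.61 and 1.78 and the chosen probe 1 at -0.07.

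Grb10, which restrains insulin and IGF1 receptor signalling, varied least. Its 8 group means lay between 10.34 in uninduced myeloid progenitors and 11.17 in uninduced HE, and each group overlapped the next in the order of levels. Uninduced arrays gave 11.66, 11.13 and 10.70 in HE, 11.29, 10.48 and 10.53 in HE2, 10.66 and 10.29 in progenitors and 10.13, 10.38 and 10.49 in myeloid progenitors. Induced arrays gave 10.96, 10.37 and 10.81, 10.42, 10.37 and 10.51, 11.18 and 10.63, and 10.26, 10.52 and 10.61 in the same stages. Dox differences were -0.45 in HE (95% interval -0.98 to 0.09), -0.33 in HE2 (-0.87 to 0.20), 0.43 in progenitors (-0.23 to 1.08) and 0.13 in myeloid progenitors (-0.41 to 0.66), so a change past 2-fold lay outside the interval in each stage but progenitors, where a rise of that size did not.

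In the order of the 8 group means, 3 of 7 neighbouring pairs were apart for Igf2, in that every array of one was above every array of the next, 2 for Meg3 and 1 each for H19, Dlk1, Peg3 and Plagl1. None were apart for Igf2r and Grb10. These counts only describe the order, because the groups were sorted by the same means and all tested genes were not counted in this way. For Igf2 the breaks lay between induced HE2 and induced progenitors, between uninduced HE2 and uninduced progenitors, and between induced and uninduced myeloid progenitors. Over the 22 arrays Pearson's r was 0.911 between Meg3 and Peg3, 0.879 between Igf2 and Peg3 and 0.824 between Igf2 and Meg3, and -0.02 between H19 and Dlk1. These values describe arrays that share stages and slides.

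By the same measure, the genes with the pattern most like Igf2 were Fbn2, Ephb4 and Hspg2 (0.96 each), a fibrillin, an ephrin receptor of venous endothelium and the basement membrane protein perlecan. Those most like Meg3 were Hoxb6, Gjc1 and Wfs1 (0.96 each). Those most like H19 were Itga1, Inka2 and Tnnt2, at 0.88, 0.86 and 0.86, and those most like Dlk1 were Csrp1, Nrg1 and Tspan7, at 0.91, 0.91 and 0.90.

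On the chosen probes, no difference in Dox response between stages passed for any of the 8 genes. Of all genes, 1.34% passed for HE2 minus HE and 0.645% for progenitors minus HE2. For myeloid progenitors minus progenitors 1.5% passed, and for myeloid progenitors minus HE 4.72%. In limma 5 of 32 such results had an unadjusted P under 0.05, for which no share of all genes was counted. They were those of Igf2r in HE2 against HE and in myeloid progenitors against progenitors, and those of H19, Igf2 and Dlk1 in myeloid progenitors against HE. On Plagl1 probes 3 and 4 the response in myeloid progenitors exceeded that in HE by 2.14 and 2.49, where the chosen probe gave -0.04.

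Other imprinted genes were counted in textbook lists. Of 17 tested paternally expressed genes, 1 rose with Dox in each kind of progenitor, none fell in any stage, and none passed in HE or HE2. Over all tested genes 3.73% passed in progenitors and 6.31% in myeloid progenitors, so that 1 of 17 lay near the background. The gene was Mest, which encodes a hydrolase-like protein of the mesoderm. Mest rose with Dox by 1.30 in progenitors (adjusted P = 0.0193 in limma) and by 2.90 in myeloid progenitors (adjusted P = 5.53e-07 in limma), and its response in myeloid progenitors exceeded that in HE by 3.06 (adjusted P = 5.17e-05 in limma). Without Dox it fell from HE2 to progenitors (-2.15, adjusted P = 6.57e-05 in limma) and on to myeloid progenitors (-1.67, adjusted P = 0.00029 in limma). It thus fell in the last step and rose with Dox in myeloid progenitors, as Igf2 did. Median Dox differences over the 17 were 0.01, 0.22, 0.29 and 0.25 in HE, HE2, progenitors and myeloid progenitors, against -0.01, -0.03, -0.04 and -0.02 over all tested genes.

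Of 19 tested maternally expressed genes, 1 rose and 1 fell with Dox in HE, 3 rose in HE2, none passed in progenitors and 1 rose in myeloid progenitors. The shares of all tested genes in these stages were 7.09%, 7.22%, 3.73% and 6.31%, near which 1 or 2 of 19 lie. In HE the organic cation carrier gene Slc22a18 rose by 1.85, and Zim1, a zinc finger gene beside Peg3, fell by 1.27 on the log2 scale, with 2 of 3 induced HE arrays in its fit after an outlier spot was dropped. In HE2, Asb4, Gatm and Kcnq1 rose by 2.45, 1.34 and 1.33. In myeloid progenitors the transcription factor gene Klf14 was at least 4.85-fold higher with Dox, because no uninduced array had its probe well above background (adjusted P = 0.000144 in limma). Without Dox, 3 of 19 fell from HE to HE2, 4 of 19 fell from HE2 to progenitors, and 1 rose and 2 fell to myeloid progenitors, where 5.06%, 5.39% and 13.9% of all genes passed. The 4 that fell to progenitors were Asb4 (-2.84), Klf14 (-2.27), Mirg (-1.80) and Zim1, which was at least 4.54-fold lower. With Dox 7 of 19 fell from HE2 to progenitors, against 7.36% of all genes that passed, led by Asb4 (-3.84) and Klf14 (-2.27).

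Of 23 tested genes of IGF and insulin signalling, 1 rose and 2 fell with Dox in HE, 1 rose and 3 fell in HE2, 1 rose in progenitors, and 1 rose and 1 fell in myeloid progenitors. Against the 7.09%, 7.22%, 3.73% and 6.31% of all tested genes, the counts in both kinds of progenitor lay near the background. The gene that rose was Igf1 in every stage, the other ligand of the IGF1 receptor and not itself imprinted, by 2.30, 2.16, 1.83 and 3.29 in order of stage (adjusted P at most 0.00364 in limma). In HE the genes that fell were Igfbp3 (-2.51), which binds IGFs outside the cell, and the receptor gene Igf1r (-1.13). In HE2 Igfbp2 (-2.82) and the insulin receptor substrates Irs1 (-1.97) and Irs2 (-1.51) fell, and Irs2 also fell in myeloid progenitors (-1.38). Without Dox 1 rose and 1 fell from HE to HE2, 2 fell from HE2 to progenitors, Igfbp2 (-3.06) and Irs1 (-2.32), and 1 rose and 5 fell to myeloid progenitors, against 5.06%, 5.39% and 13.9% of all genes.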

How the data were processed

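Total RNA labelled with Cy3 was hybridised to 1-colour Agilent SurePrint mouse arrays, and the deposited scanner files give an intensity per spot (Feature Extraction 10.7.3.1 per the file headers, 10.7.1.1 in the submitters' processing notes, and array annotation on mm9). The authors also deposited a table of log2 values, used as an alternative. Here, in limma 3.58.1 (R 4.3.3), median intensities were background-corrected by normexp with offset 16, controls (3671 of the spots) and outlier spots were dropped, 23 arrays were quantile normalized, and spots of a probe were averaged. Accessions named 26582 of 55681 probes, and 10 were named by the files. One mean per group was fitted over 22 arrays, with P adjusted by Benjamini-Hochberg over all 15203 genes. Genes passed at P of at most 0.001 and 2-fold, as in the study's methods. The number of arrays limits the precision. The script was tested on simulated data.

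The genes and lists were chosen with earlier results of these data known. Named are all chosen genes, at most 4 list genes per comparison that passed, those with the largest change, and for H19, Igf2, Dlk1 and Meg3 the 3 most correlated genes. The titles state no pairing. In the step from HE to HE2 without Dox, deviations of same-numbered arrays correlated at 0.394, 0.797 and 0.61, and these arrays also shared a slide. In the value table, columns of induced arrays 2 and 3 of HE, HE2 and myeloid progenitors match each other's scanner files, which does not move group means. Alternatives were other probes, the floor, other scaling, slide and replicate blocks, and leaving out each array.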

Additional observations from a re-analysis of the deposited data

How the results depend on the processing

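The counts of genes past the threshold were 1 of 32 for Dox, 6 of 24 for stages without Dox, 1 of 24 for stages with Dox and 0 of 32 for differences in Dox response. At an adjusted P of at most 0.05 in limma, in place of P of at most 0.001, they were 11 for stages without Dox and 6 for stages with Dox. By the 2-fold change alone they were 6, 16, 8 and 8. Fitting only the groups compared left 0 for stages with Dox, and with the slide as a block 3 passed there. With the replicate number as a block, 3 passed for Dox, 9 for stages without Dox, 4 for stages with Dox and 1 for the differences. With a replicate block under the numbering of the value table, an alternative chosen after seeing the data, these were 4, 10, 4 and 2. The titles state no pairing in any comparison. Outside the step from HE to HE2 without Dox, same-numbered deviations correlated at -0.0559, 0.695 and -0.0952 for Dox in HE. For Dox they correlated at 0.362, -0.538 and -0.448 in HE2, and at 0.212, -0.13 and -0.00823 in myeloid progenitors. With 2 pairs only, which cannot settle a pairing here, they correlated at 0.233 and 0.233 for Dox in progenitors, at 0.381 and 0.198 from HE2 to progenitors without Dox and at 0.164 and 0.121 with Dox, and at -0.175 to -0.0339 from progenitors to myeloid progenitors. Of the 9 calls that the block added, 8 were of H19 and 1 of Igf2r. From HE to HE2 without Dox, the block changed the call of H19 and of no other of the 8 genes.

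Leaving out each array in turn gave 0 to 1 for Dox, 4 to 7 for stages without Dox, 1 to 3 for stages with Dox and 0 to 0 for the differences. For stages with Dox, 3 passed without the first induced progenitor array. Counting every result and left-out array, 161 of 176 calls were kept, and 110 of 124 under the other alternatives and probes. Of the 14 lost there, Igf2r from HE to HE2 without Dox measured -1.38 with scaling to the 75th percentile, and Igf2r from progenitors to myeloid progenitors without Dox measured 1.34 with that scaling and 1.31 with the technical repeat included. Peg3 from HE2 to progenitors with Dox measured -1.98 as the mean of its probes. Fitting only the groups compared lost these 3 calls too, and the cause was not tested. Scaling to the 75th percentile moved the median of all genes by -0.144 for Dox in progenitors, -0.124 for Dox in myeloid progenitors, and by -0.129 and -0.116 from progenitors to myeloid progenitors without and with Dox. Directions reversed for Plagl1 with another probe. Probes 3 and 4 gave 1.61 and 1.78 for Dox in myeloid progenitors, 2.13 and 1.89 from progenitors to myeloid progenitors with Dox, and 2.14 and 2.49 for the Dox response in myeloid progenitors minus that in HE. Probe 3 gave 1.50 from progenitors to myeloid progenitors without Dox. With 2 arrays each, the progenitor groups gave the widest errors, and signal near background limits probes 3 and 4 of Plagl1 in progenitors.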

Other observations

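RNAs of proteins that lay down, keep or read imprints were measured on the same arrays, in a list that also holds Lin28a, Lin28b and Hmga2, genes of embryonic and fetal cells. Of 15 tested genes of this list, 1 fell with Dox in HE, 2 fell in HE2, none passed in progenitors and 1 rose in myeloid progenitors, where 7.09%, 7.22%, 3.73% and 6.31% of all tested genes passed, and 1 of 15 lies near such a share. Lin28a and Hmga2 supplied 3 of these 4 calls. Lin28a, an RNA-binding protein of embryonic cells, fell by 1.58 on the log2 scale in HE and by 1.54 in HE2 (adjusted P = 0.00174 and 0.00215 in limma), and Dnmt3b, a de novo DNA methyltransferase, fell by 1.06 in HE2 (adjusted P = 0.00465 in limma). Hmga2, a chromatin protein of fetal cells, rose by 1.78 in myeloid progenitors (adjusted P = 0.000736 in limma). Between stages, Dnmt3b rose from HE to HE2 by 1.53 without and 1.08 with Dox. From progenitors to myeloid progenitors 3 of the 15 fell in each condition, Lin28a (-3.63 without and -2.18 with Dox), Dnmt3b (-1.42 and -1.70) and Dnmt1 (-1.39 and -1.31), and Tet2 rose with Dox (1.22). Median differences over the list in this step were -0.59 without and -0.35 with Dox, against -0.12 and -0.07 over all tested genes, of which 13.9% and 7.37% passed.

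From progenitors to myeloid progenitors without Dox, 2 of 17 tested paternally expressed genes rose and 3 fell, against 13.9% of all genes that passed. Besides Airn and Mest, these were Kcnq1ot1 (1.51), an antisense RNA that silences its neighbours, Zdbf2 (-1.89) and Sgce (-1.32). Of the 19 maternally expressed genes in the same step, Asb4 rose (2.58) and Osbpl5 (-1.93) and Copg2 (-1.27) fell.

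A probe with an accession absent from the gene table correlated with the chosen H19 probe at 0.916 over the 22 arrays, with a mean log2 intensity of 11.85. A dimmer probe of the same accession, with a mean of 5.66 and well above background on 14 arrays, correlated with the H19 probe at -0.17. No gene was assigned to this accession, which was singled out after its values were seen.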
